A study of Mus musculus with 5 samples.

Results

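The genes described here are 10 genes of the disease-associated microglia programme, Cst7, Lpl, Spp1, Cd9, Axl, Csf1, Ank, Lgals3, Fabp5 and Gpnmb, out of 52542 gene rows in the UMI tables. They were chosen by name, not by a rule on their values, but with earlier results of these data known. Brains of DM-hTAU mice were the source of the cells, taken at 9 months of age, treated with anti-PD-L1, an antibody that blocks a ligand of the inhibitory receptor PD-1. DM-hTAU mice are a tauopathy model, heterozygous for a human tau transgene that carries frontotemporal dementia mutations and is driven by the natural tau promoter. Cells sorted as CD45highCD11bhigh were profiled by MARS-seq, in which single cells are sorted into separate wells of a plate and the 3′ ends of its mRNAs are counted by unique molecular identifiers (UMIs). All 5 libraries, AB5863, AB5864, AB5865, AB5867 and AB5876, carry these same labels, so there is no untreated, isotype-treated or wild-type group and no comparison of treatments. The authors' text reports sorting from isotype-treated as well as anti-PD-L1-treated mice, whereas their figure legend names anti-PD-L1 only. The labels were followed here. The preparation text deposited with the labels describes thymus and small intestine, whereas the tissue label is brain. Nothing ties a library to a mouse, and the p-values below measure the spread between plates, which may be technical, and make no allowance for classes having been formed from the same cells.

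Microglia at rest express receptors such as P2ry12, which senses ADP, and the membrane protein Tmem119. Around amyloid plaques, dying neurons and other damage they are known to lower these homeostatic genes and to raise a programme of lipid handling, lysosomal and phagocytic genes, whose later steps require the lipid receptor Trem2. Several genes of the programme are not restricted to microglia: macrophages, monocytes and dendritic cells are known to use Lgals3, Axl, Cd9 and Spp1 as well.

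From 1900 wells labelled with 1 cell, the 825 that reached 500 UMIs were analysed, 68 to 314 per library, with a median of 1015 UMIs. The libraries differed in depth, with medians of 651 UMIs per kept cell in AB5867, 680 in AB5863 and 759 in AB5864 against 1168 in AB5865 and 1268 in AB5876. Cells were placed in classes by marker lists that contain neither the 10 genes nor P2ry12 and Tmem119. This gave 278 microglia-like cells, 120 border-type macrophage-like cells, 47 monocyte-like cells, 42 dendritic cell-like cells, 30 neutrophil-like cells, 4 T or NK cell-like cells and 304 ungated cells, of which 267 met the criterion of no list and 37 met that of several. In 85 microglia-like cells the share of microglia markers was within 1.5 times the minimum for that class. The class was checked with the homeostatic pair, which the gate had not used. Pooled over libraries, P2ry12 stood at 27.2 UMIs per 10000 in microglia-like cells and at 2.58 to 6.54 in the other classes of at least 30 cells, and Tmem119 at 14.2 and at 0.788 to 3.91. By library the separation was less clear. Tmem119 was 8.46 to 23.7 in microglia-like cells and 18.4 in the 8 monocyte-like cells of AB5864. P2ry12 was 22.6 to 46.8 in microglia-like cells and 20.4 in the 5 neutrophil-like cells of AB5867, of which 4 held it. After thinning to 500 UMIs, P2ry12 was seen in 56.1% of microglia-like and 23.3% of neutrophil-like cells. P2ry12 and Tmem119 were both lower than in microglia-like cells in all 4 tested classes (edgeR, log2 fold change -1.98 to -4.71, adjusted p at most 0.00298). In border-type macrophage-like cells both calls were lost in 5 of 15 alternatives, with DESeq2 (adjusted p = 0.115 and 0.205), without a filter on low counts (0.508 and 0.477), with at least 20 UMIs over the sums (0.315 and 0.261) and without AB5865 or AB5876 (1.00). The calls in monocyte-like and dendritic cell-like cells were lost without AB5865 or AB5876 (0.0686 to 0.861) and those in neutrophil-like cells without AB5876 (0.0744 and 0.0628), and the direction stayed the same in each.

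The 10 genes gave few UMIs in the sorted cells. These totals show how much data stands behind each gene and do not compare expression between genes. Over all kept cells Cd9 gave 685 UMIs, Axl 608, Lpl 325, Lgals3 280, Spp1 127, Ank 106, Csf1 46, Cst7 45 and Fabp5 21. Gpnmb, a transmembrane glycoprotein of phagocytes, gave 0 UMIs in every well, which in the 278 microglia-like cells allows a share of cells with a UMI of up to 1.08%. Fabp5, a fatty acid carrier, had 14 of its 21 UMIs in a single dendritic cell-like cell and was seen in 4 microglia-like cells with 1 UMI each. The 20 empty wells held 320 UMIs in all and none of a member, and 2 of P2ry12, so carry-over between wells could be bounded only loosely. All 384 cell barcodes are reused in each of the 5 plates, which a pool barcode tells apart, and no pair of wells with at least 50 UMIs had identical counts.

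Lpl encodes lipoprotein lipase, which releases fatty acids from lipoprotein triglycerides, and lies at chr8:68880491-68907448 (GRCm38, plus strand). In microglia-like cells its UMIs per 10000 were highest in AB5867, at 6.44, followed by AB5865 at 5.43, AB5863 at 4.84, AB5876 at 4.08 and AB5864 at 2.26. The mean was 4.61 ± 1.57 (SD, n = 5 libraries), and no library was without it. It was detected in 38 of 278 microglia-like cells (13.7%, exact binomial 95% interval 9.86 to 18.3%) and in 10.8% after every cell was thinned to 500 UMIs. The thinned share was 1.67% in border-type macrophage-like cells, 4.26% in monocyte-like cells, 2.38% in dendritic cell-like cells and 7.89% in ungated cells. Neutrophil-like cells, taken here as a class that should lack Lpl, had no Lpl UMI in 30 cells, a count that allows a share of up to 10%; their median depth was 722 UMIs, against 983 in microglia-like cells.

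Lpl was concentrated in few cells. The 5 microglia-like cells richest in Lpl carried 48.1% of the class's 160 Lpl UMIs, and the 20 kept cells with at least 5 Lpl UMIs carried 67.7% of all Lpl UMIs. Of those 20 cells, 11 were microglia-like, 7 ungated, 1 border-type macrophage-like and 1 monocyte-like, and 16 held UMIs of at least 2 other members. The ungated cells of AB5867 reached 29.6 Lpl UMIs per 10000, of which 51 of 56 UMIs came from 2 cells, and stood at 3.15 without those. The cell with the most Lpl, an ungated cell with 27 Lpl UMIs, also held 17 Cd9, 3 Axl, 2 Csf1, 1 Cst7 and 1 Ank UMIs and no P2ry12 or Tmem119.

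Cd9, a tetraspanin of the cell surface (chr6:125460266-125494791, minus strand), was detected in 150 of 278 microglia-like cells (54.0%) and in 33.1% after thinning, against 16.7% of thinned neutrophil-like cells. Its level in microglia-like cells was 11.3 UMIs per 10000 in both AB5863 and AB5867, 9.82 in AB5876, 9.55 in AB5865 and 7.90 in AB5864, a mean of 9.97 ± 1.41 (SD, n = 5 libraries). Among libraries with at least 5 cells of a class, no value of another named class exceeded 6.79, in neutrophil-like cells, and these did not overlap with microglia-like cells. Libraries with 1 to 4 cells of a class did overlap, up to 25.4 in the 3 border-type macrophage-like cells of AB5867 (6 UMIs). Ungated cells did overlap, at 4.22 to 13.8.

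Axl, a receptor tyrosine kinase that recognises phosphatidylserine through its ligand Gas6 (chr7:25757273-25788705, minus strand), was spread over the classes. It stood at 4.45 UMIs per 10000 in microglia-like cells, 6.35 in border-type macrophage-like cells, 5.80 in monocyte-like cells, 2.78 in dendritic cell-like cells and 5.52 in neutrophil-like cells, in the last of which 11 of 14 UMIs were in 1 cell. Among microglia-like cells AB5863 was highest at 10.7, ahead of 5.64 in AB5867, 5.11 in AB5865, 3.95 in AB5864 and 2.42 in AB5876. The other classes overlapped with that range, but with at least 5 cells Axl was also 0 in the monocyte-like and dendritic cell-like cells of AB5864 and in the neutrophil-like cells of AB5867. With fewer cells it reached 58.8 in the 1 border-type macrophage-like cell of AB5863. The thinned share of cells was 16.5% in microglia-like and 24.2% in border-type macrophage-like cells.

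Lgals3 encodes galectin-3, a secreted lectin that binds galactosides (chr14:47367751-47386160, plus strand), and was mainly a transcript of other classes. It stood at 0 to 1.73 UMIs per 10000 over the libraries in microglia-like cells, and at 5.92 to 6.91 in monocyte-like, 4.18 to 8.43 in dendritic cell-like and 2.59 to 10.3 in neutrophil-like cells, 3 libraries with at least 5 cells each, with no overlap. In libraries with fewer cells it was 0 in the 4 monocyte-like cells of AB5863 and in the 2 dendritic cell-like cells of both AB5863 and AB5867. Border-type macrophage-like cells, at 0.742 and 0.943 in 2 libraries, lay within the range of microglia-like cells. The thinned share was 3.60% of microglia-like cells against 25.5% of monocyte-like cells, and 14 of the 34 UMIs in microglia-like cells were in 1 cell.

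The remaining members had few UMIs. Spp1 (osteopontin, a secreted phosphoprotein; chr5:104435118-104441050, plus strand) gave 61 UMIs in 17 microglia-like cells, with 3.62 per 10000 in AB5867, 2.07 in AB5876, 1.73 in AB5865, 0.564 in AB5864 and none in AB5863, and 67.2% of its UMIs were in 5 cells. Csf1, the growth factor read by the receptor Csf1r (chr3:107741048-107760469, minus strand), gave 27 UMIs in 11 microglia-like cells. Those cells were 3.96% of the class, and 74.1% of the Csf1 UMIs were in 5 of them. No Csf1 UMI was seen in monocyte-like or dendritic cell-like cells, counts that allow shares of up to 6.38% and 7.14%. A lower share of cells with Csf1 in these 2 classes therefore cannot be told from these counts. With 3 counts over the class as the floor, pooled levels were at least 2.06-fold and at least 3.24-fold lower. That bound takes UMIs as independent, although they were clustered in few cells. Cst7 (cystatin F, an inhibitor of lysosomal cathepsins; chr2:150570415-150578944, plus strand) gave 26 UMIs in 17 microglia-like cells and 2 in border-type macrophage-like cells, 1 in monocyte-like cells, 1 in dendritic cell-like cells and none in neutrophil-like cells. The ratio of its level in border-type macrophage-like to that in microglia-like cells was 0.178 (counting interval 0.0205 to 0.712, from 2 UMIs). Ank, which exports pyrophosphate and ATP-related anions (chr15:27466677-27594909, plus strand), stood at 1.18 per 10000 in microglia-like and at 0.409 to 1.31 in the other named classes, without a class that stood apart. Ank was seen in 4.68% of thinned microglia-like cells and in 2 of 30 thinned neutrophil-like cells (6.67%, 0.818 to 22.1%).

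**Figure D1:**
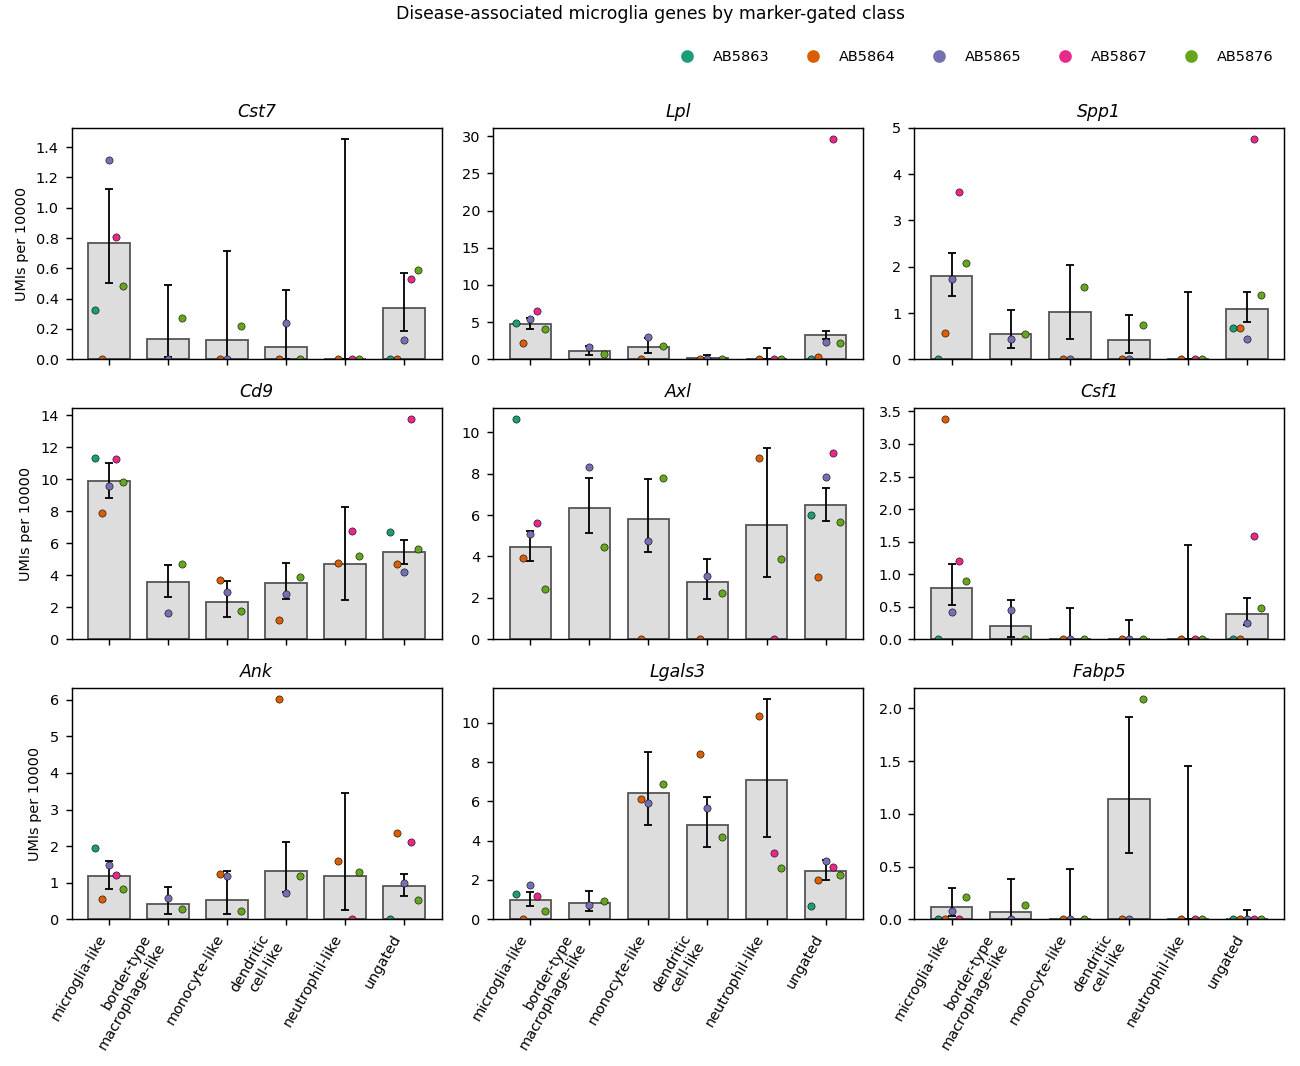
UMIs per 10000 of 9 members in each class; bars are all cells of a class with exact Poisson 95% intervals (counting error only), and points are libraries with at least 5 cells of that class. Lpl and Cd9 are highest in microglia-like cells among the named classes, at 4.71 and 9.86, and Lgals3 is lowest in microglia-like and border-type macrophage-like cells; the vertical scales differ between panels.

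For tests between classes, the UMIs of all cells of a class in 1 library were added up, and each class was set against microglia-like cells in edgeR (quasi-likelihood test, blocked by library). P-values were adjusted by Benjamini-Hochberg over the 972 genes that passed the filter on low counts. Of the 10 members Lpl, Cd9, Axl and Lgals3 passed that filter; the other 6 were too low to be tested. Border-type macrophage-like cells entered from AB5865 and AB5876, monocyte-like and dendritic cell-like cells from AB5864, AB5865 and AB5876, and neutrophil-like cells from AB5864, AB5867 and AB5876.

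Cd9 was lower in border-type macrophage-like than in microglia-like cells, by a log2 fold change of -1.60 ± 0.49 (SE, adjusted p = 0.0348), the only called member of the 4 tested, where 1.23% of all tested genes were called lower. It was also lower in monocyte-like cells (-2.43 ± 0.54, adjusted p = 0.000209; background of genes called lower 10.8%) and in dendritic cell-like cells (-1.77 ± 0.46, adjusted p = 0.00151; background 14.4%). In neutrophil-like cells the value was -1.12 ± 0.59, which did not pass (edgeR, adjusted p = 0.152).

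Lgals3 was higher than in microglia-like cells in monocyte-like cells (log2 fold change 2.31 ± 0.60 SE, adjusted p = 0.00218; background of genes called higher 3.4%), in dendritic cell-like cells (2.27 ± 0.58, adjusted p = 0.00116; background 9.77%) and in neutrophil-like cells (2.55 ± 0.75, adjusted p = 0.00740; background 6.17%). Between border-type macrophage-like and microglia-like cells the difference was -0.06 ± 0.75. Over all tested genes the median log2 fold change of neutrophil-like cells was -0.75 with TMM factors and -0.13 with DESeq2 size factors, and relative to it Lgals3 stood at 3.30 and 3.25. With those size factors the genes called in neutrophil-like cells were 84 higher and 63 lower, in place of 60 higher and 146 lower, and in border-type macrophage-like cells 21 higher and 20 lower, in place of 20 and 12.

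Lpl was lower in dendritic cell-like than in microglia-like cells (edgeR, adjusted p = 5.0e-07, background of genes called lower 14.4%). Only 2 Lpl UMIs were seen in that class, neither in a library that entered the test, and the ratio of its level over all cells was 0.0347 (counting interval 0.00416 to 0.127). In neutrophil-like cells the pooled level was at least 3.98-fold lower, with 3 counts over the class as the floor. That bound takes UMIs as independent, although 48.1% of the Lpl UMIs of microglia-like cells were in 5 cells. A lower share of cells with Lpl cannot be told, since up to 10% is allowed, beside 10.8% of thinned microglia-like cells. By its own test edgeR called Lpl lower in neutrophil-like cells (adjusted p = 0.0121, background of genes called lower 15.0%). That call was lost in 8 of 16 alternatives, among them DESeq2 size factors (adjusted p = 0.0563), DESeq2 (0.0745), at least 300 UMIs per cell (0.134) and at least 10 cells per sum (0.335). Monocyte-like cells had a lower level in every library that entered but did not pass (-1.66 ± 0.72, adjusted p = 0.105), and neither did border-type macrophage-like cells (-2.09 ± 0.74, adjusted p = 0.108). Axl passed in no class, with values from -0.94 to 0.61. These calls depended on AB5865 and AB5876. Without either of them no call of a member remained in monocyte-like, dendritic cell-like or neutrophil-like cells. The adjusted p of the members called there then lay between 0.0808 and 0.977 (edgeR). Border-type macrophage-like cells had 1 sum left, and Cd9 there stood at -2.65 to -1.08 leaving out 1 library. Each value kept its direction. AB5865 supplied no neutrophil-like sum and entered that comparison only through the shared fit. Without AB5865 the log2 fold change of Lpl in neutrophil-like cells was -6.83, in place of -6.76. In neutrophil-like cells the Lgals3 call was also lost without AB5864 (log2 fold change 0.99, adjusted p = 0.501) and the Lpl call without AB5867 (0.0741). Without a filter on low counts Cd9 and Lgals3 lost their calls in monocyte-like cells (adjusted p = 0.0533 and 0.129) and in dendritic cell-like cells (0.134 and 0.0871), Cd9 in border-type macrophage-like cells (1.00) and Lgals3 in neutrophil-like cells (0.383).

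The other genes of the programme were taken from a list of 10 early genes and 18 late genes. Of the late genes, 11 could be tested: Ctsl and Serpine2 were lower in border-type macrophage-like cells (log2 fold change -1.90 and -3.07, adjusted p = 0.0404 and 0.0214) and none was higher. In monocyte-like cells 7 were lower and none higher, among them the lysosomal protease gene Ctsl (-3.50), the lipid receptor Trem2 (-2.27) and the chemokine Ccl3 (-3.97). In dendritic cell-like cells 6 were lower and Cd52 was higher, and in neutrophil-like cells 6 were lower and Ccl6 was higher. Over all tested genes 1.23% were called lower in border-type macrophage-like, 10.8% in monocyte-like, 14.4% in dendritic cell-like and 15.0% in neutrophil-like cells. Called higher were 20 of 972 genes in border-type macrophage-like cells, and 3.4%, 9.77% and 6.17% in the other classes in that order. The median over the tested late genes was -0.82 in border-type macrophage-like cells (-0.01 over all tested genes), -1.89 in monocyte-like cells (-0.16), -2.49 in dendritic cell-like cells (-0.06) and -2.76 in neutrophil-like cells (-0.75). Early genes were less uniform: Apoe, which carries lipids between cells, and the lysozyme gene Lyz2 were higher in border-type macrophage-like cells (1.71 and 1.84, adjusted p = 0.00336 and 0.00209) and no early gene was lower there, whereas Apoe was lower in dendritic cell-like cells (-1.97). Of the 10 early genes, 1 was higher and 3 were lower in monocyte-like cells, 0 and 4 in dendritic cell-like cells, and 1 and 4 in neutrophil-like cells. The higher gene was Lyz2 in both monocyte-like (1.61, adjusted p = 0.000747) and neutrophil-like cells (1.97, adjusted p = 1.7e-05). Among 11 homeostatic genes, all tested, 4, 10, 9 and 9 were lower in the 4 classes in the same order and none was higher. P2ry12 and Tmem119, already given above, are among the genes counted in each class.

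Within microglia-like cells the members were then set against P2ry12 and Tmem119. The cells of each library were ranked by the summed UMIs of the pair after thinning to 500 UMIs and split at the library's median, which gave 138 P2ry12/Tmem119-low and 138 P2ry12/Tmem119-high cells. Lpl stood, in the high and the low cells respectively, at 4.98 and 4.69 UMIs per 10000 in AB5863, 0 and 5.84 in AB5864, 0.803 and 8.66 in AB5865, 0.879 and 11.6 in AB5867, and 0.733 and 7.34 in AB5876. It was thus higher in the low cells of 4 libraries and about level in AB5863. Over all 5 libraries the values of low and high cells overlapped, through the 4.98 and 4.69 of AB5863. In AB5864 this rests on 1 low cell with 4 Lpl UMIs. Single cells also gave 9 of the 15 Lpl UMIs of low cells in AB5867, 25 of 62 in AB5865 and 23 of 54 in AB5876. In total 142 Lpl UMIs fell in low cells and 18 in high cells, and after thinning 25 low and 5 high cells held Lpl.

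**Figure D2:**
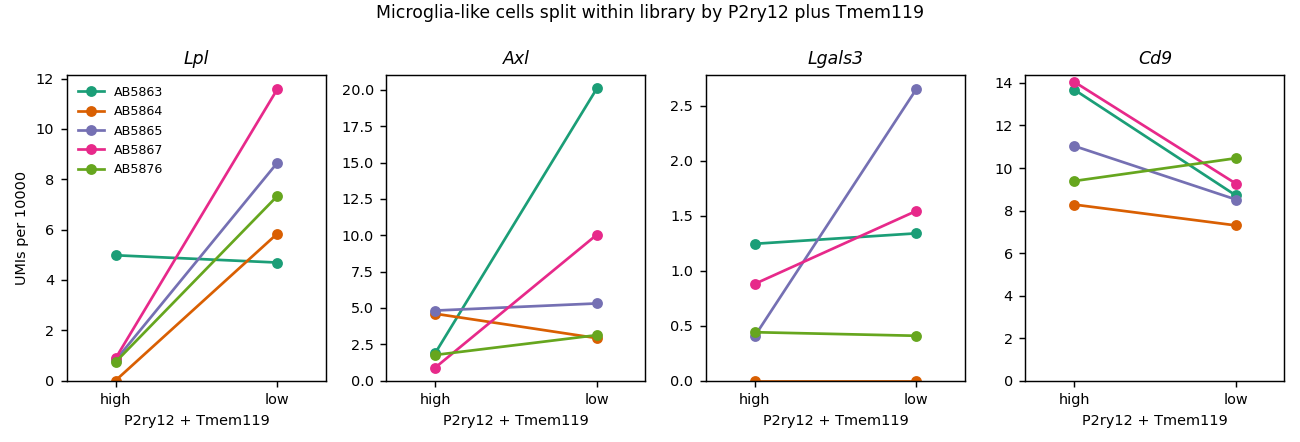
UMIs per 10000 of 4 members in microglia-like cells with high and low P2ry12 plus Tmem119; each line joins both groups of 1 library. Lpl is higher in the low cells of 4 of 5 libraries, in AB5864 through 1 cell, and about level in AB5863, whereas Cd9 is lower in the low cells of 4 libraries.

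With edgeR's own filter 150 genes were tested between low and high cells, of which 0.667% were called higher in the low cells, and Cd9 was the only member among them. A filter of at least 20 UMIs over the sums, chosen after the data had been seen because the first left out 9 members, tested 2863 genes and 8 members and called 0.0699% of genes higher. Under it Lpl was higher in the low cells (log2 fold change 2.61 ± 0.56 SE, adjusted p = 0.00490), and Apoe was the only other gene called. Without any filter the adjusted p of Lpl was 0.0428. The mean difference of 6.14 UMIs per 10000 over 5 libraries had p = 0.125 in an exact two-sided permutation test of the paired values, where the smallest p possible is 0.0625. The call did not hold with DESeq2 (adjusted p = 0.330), without the library as a block (0.0546), with P2ry12 and Tmem119 added to the microglia gate (0.111), or without AB5865 (0.649), AB5867 (0.0545) or AB5876 (0.329), while the log2 fold change stayed between 2.36 and 3.48. Without AB5863 the pooled ratio of low to high was 11.5, in place of 6.85.

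No other member passed. Axl stood at 5.89 UMIs per 10000 in low and 2.88 in high cells, of which 20.1 and 1.87 in AB5863 and 10.04 and 0.879 in AB5867, and it was lower in the low cells of AB5864 (2.92 and 4.60). Its log2 fold change was 1.19 ± 0.48 (edgeR, unadjusted p = 0.0129, adjusted p = 0.999). Without AB5863 the pooled ratio was 1.54, in place of 2.05. Cd9 gave 168 UMIs in low and 166 in high cells, with lower levels in the low cells of 4 of 5 libraries and a log2 fold change of -0.34 ± 0.33. Lgals3 had 26 and 8 UMIs, a pooled ratio of 2.82 that fell to 1.15 without AB5865. Csf1 had 19 UMIs in low and 8 in high cells, Spp1 35 and 26, Cst7 15 and 9, Ank 24 and 15, and Fabp5 2 and 2; the adjusted p was 0.999 for each of the first 4 (edgeR). Averaged over the 5 libraries, the levels of Csf1, Cst7 and Ank were slightly lower in the low cells, opposite to the pooled counts.

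Other quantities moved with the split. Low cells also had fewer UMIs of the gate's own microglia markers, 171 to 209 per 10000 in the 5 libraries against 216 to 301 in high cells, and their median depth was 1048 UMIs against 915. The border-type macrophage markers summed to 4.89 per 10000 in low and 5.76 in high cells, the monocyte markers to 3.0 and 2.94, and the dendritic cell markers to 1.06 and 0.704. The neutrophil markers summed to 12.6 and 12.9, with 90.5 and 56.1 in AB5864 alone. Averaged over libraries, the early gene Lyz2 stood at 34.9 UMIs per 10000 in low and 15.8 in high cells, higher in the low cells of 5 of 5 libraries (edgeR, adjusted p = 0.0633). Cd74, a gene of antigen presentation that was chosen after its values were seen, stood at 39.6 and 24.2, higher in 4 of 5 libraries. Ccl4, a chemokine, gave 46 UMIs in low and 5 in high cells (edgeR with the filter of 20 UMIs, adjusted p = 0.674). The part of these quantities in the Lpl result was not tested. Among the 10 early genes only Apoe passed, with a log2 fold change of 0.95 (edgeR, adjusted p = 0.000174). It stood at 101 ± 45.9 per 10000 in low and 49.6 ± 19.1 in high cells (SD, n = 5 libraries), higher in low cells in all 5. The Apoe call was lost in 3 of 15 alternatives: without the library as a block, without AB5867 (adjusted p = 0.124) and with the pair in the microglia gate. The exact paired permutation test gave p = 0.0625, the smallest possible. Of the late genes none passed of 5 tested with edgeR's filter and 17 with the filter of 20 UMIs. Of the homeostatic genes other than the pair none passed; 6 and 9 were tested under these filters, with medians of -0.43 and -0.46 beside 0.02 and -0.05 over all tested genes.

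Seen per cell, most microglia-like cells held none or 1 of the members. After thinning to 500 UMIs, 128 of 278 cells had none, 109 had 1, 26 had 2 and 15 had 3 or more, the most being 5. Cells with at least 2 members were 14.7% of microglia-like cells (exact binomial 95% interval 10.8 to 19.5%), 13.2% of ungated cells (9.57 to 17.5%), 7.50% of border-type macrophage-like cells (3.49 to 13.8%), 8.51% of monocyte-like cells (2.37 to 20.4%), 7.14% of dendritic cell-like cells (1.5 to 19.5%) and 6.67% of neutrophil-like cells (0.818 to 22.1%). At least 3 members were seen in 15 microglia-like and 12 ungated cells and in 2 cells of the 4 other named myeloid classes. Without thinning the order of the classes was different: cells with at least 2 members were 61.9% of dendritic cell-like, 36.2% of monocyte-like and 32.0% of microglia-like cells, and those with at least 3 were 21.4%, 23.4% and 11.9%, at median depths of 2581, 1260 and 983 UMIs. These intervals cover counting error over pooled cells only.

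Lpl was set beside the other members in the same cells. Of the 30 thinned microglia-like cells with Lpl, 12 also held Cd9, 9 Axl, 4 Spp1, 4 Ank, 3 Lgals3, 2 Cst7 and 1 Csf1. In the 248 cells without Lpl the shares were lower for each of these genes: Axl was seen in 14.9% against 30.0% with Lpl, Spp1 in 2.42% against 13.3%, Ank in 3.63% against 13.3%, Lgals3 in 2.82% against 10%, and Cd9 in 32.3% against 40.0%. Cd9 had little relation to Lpl by this measure, being common in cells with and without it. The figures for the rare members rest on 1 to 4 cells each and are given as descriptions.

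**Figure D3:**
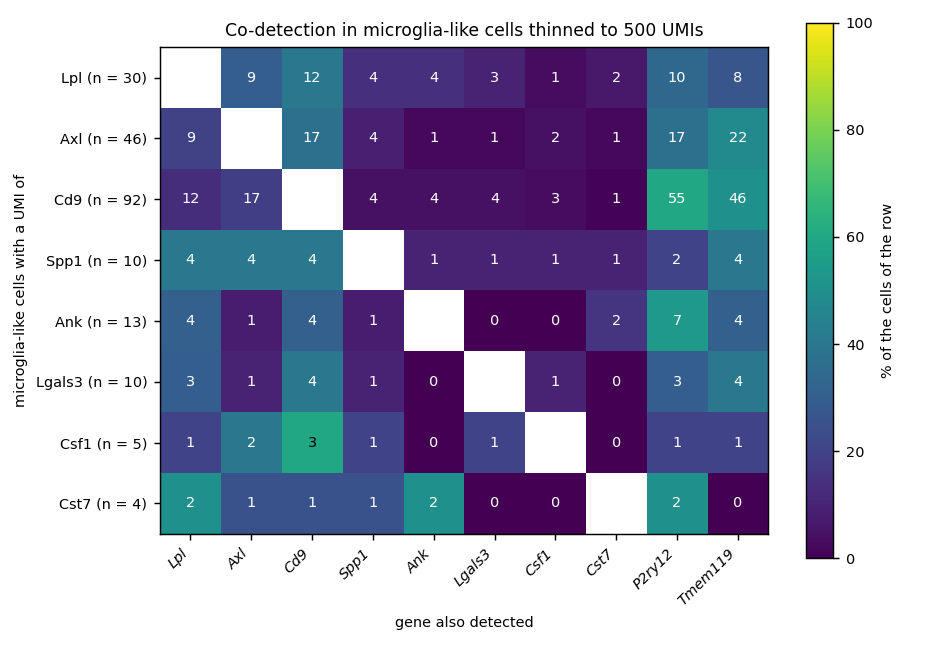
Co-detection in microglia-like cells after thinning to 500 UMIs; each row takes the cells with a UMI of the gene at left (n), the numbers are the cells that also held the gene at the bottom, and the colour is their percentage of the row. Cells with Lpl held P2ry12 in 10 and Tmem119 in 8 of 30, and cells with Cd9 held them in 55 and 46 of 92.

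The same cells were then grouped by how many members they held; these counts use the cells of the split above and are no independent evidence. P2ry12 was seen in 60.9% of thinned microglia-like cells with no member, 58.7% with 1, 34.6% with 2 and 33.3% with 3 or more. Tmem119 was seen in 40.6%, 50.5%, 53.8% and 13.3% of the same cells, so that its lowest share was in the last group. Neither was seen in 25% of cells without a member (exact binomial 95% interval 17.8 to 33.4%) and in 8 of 15 cells with 3 or more (53.3%, 26.6 to 78.7%). Median depth before thinning was 968 UMIs in the first and 1226 in the last group.

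**Figure D4:**
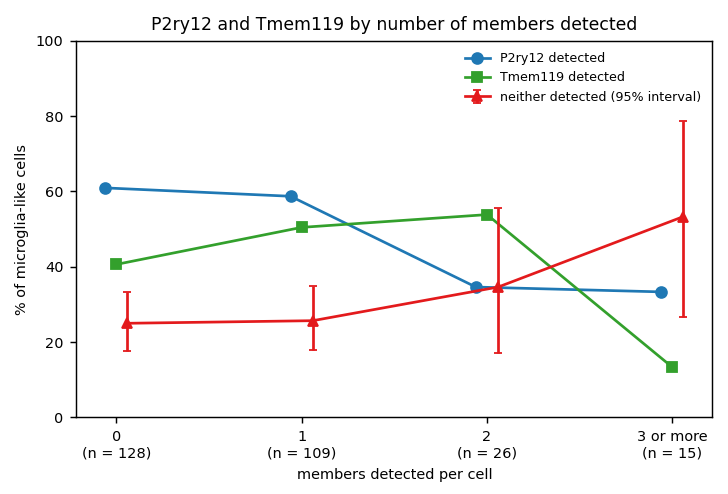
Percentage of microglia-like cells with P2ry12, with Tmem119 and with neither, after thinning to 500 UMIs, by the number of members detected in the cell; error bars are exact binomial 95% intervals over pooled cells. Cells with neither are 25% where no member was detected and 53.3% where 3 or more were.

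The members differed in this respect. Cells with Lpl had 0.567 P2ry12 and 0.333 Tmem119 UMIs on average after thinning, against 1.58 and 0.770 in cells without it, and P2ry12 was lower in cells with Lpl in each of the 5 libraries, which held 3, 1, 12, 6 and 8 such cells. Neither gene was seen in 15 of 30 cells with Lpl (50%) and in 25% of cells without. Cells with Axl had less P2ry12 than cells without (0.870 against 1.59) and a like level of Tmem119 (0.804 against 0.707). For Cd9 both were slightly higher in cells that held it, 1.66 against 1.38 for P2ry12 and 0.793 against 0.688 for Tmem119. In ungated cells, where the pair was rare, P2ry12 was seen in 8 of 24 cells with Lpl (33.3%) and in 18.6% of 280 cells without, the opposite order, whereas Tmem119 was seen in 2 of 24 (8.33%) and in 16.1%, the same order as in microglia-like cells.

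**Figure D5:**
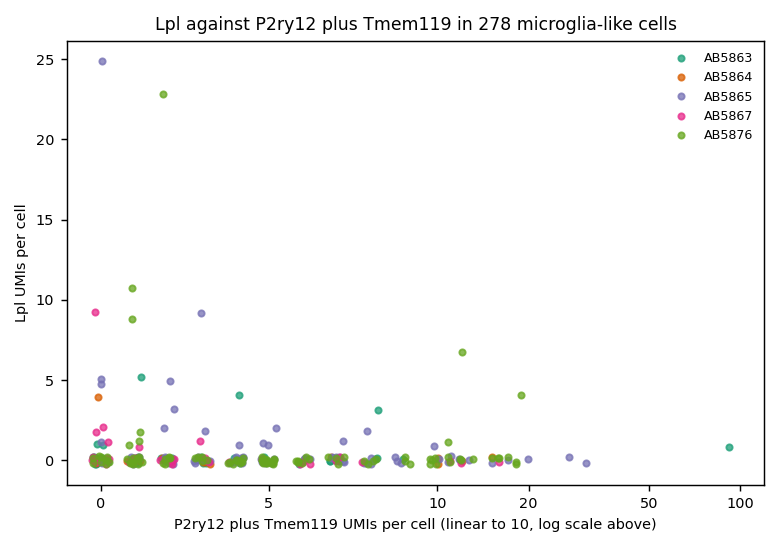
Lpl UMIs against summed P2ry12 and Tmem119 UMIs in each of the 278 microglia-like cells, coloured by library, with points shifted slightly so that they can be told apart; the horizontal axis is linear to 10 and logarithmic above. The 11 cells with at least 5 Lpl UMIs held 15 P2ry12 and 7 Tmem119 UMIs in all, and 4 of them held neither gene.

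Genes that resembled the summed members over the 278 microglia-like cells did so weakly. Among 500 genes detected in at least 10% of these cells, outside the gate and the members, the 10 with the highest Pearson correlation with the summed members (log2 of 1 plus thinned UMIs, centred within library) were Rpl8 (0.22), Cd68 (0.20), Ctsb (0.20), Asah1 (0.19), Tyrobp (0.18), Ccl6 (0.17), Cybb (0.17), Hsp90ab1 (0.17), Cd52 (0.16) and Eif1 (0.16). Cd68, Ctsb, Tyrobp, Ccl6 and Cd52 belong to the early and late lists. The share of these lists among the 500 genes is not given, so their presence here does not show that the lists are over-represented. By UMIs the summed members lean toward Cd9, with 335 in microglia-like cells, beside 160 of Lpl. Cd68 and Ctsb encode lysosomal proteins and Tyrobp the adaptor that signals for Trem2. P2ry12 stood at -0.12. These cells share libraries and a thinned depth, and correlations of this size in sparse counts are given as a description. Whether the highest of 500 correlations would reach this size by chance was not tested.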

How the data were processed

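The deposited tables hold whole-number UMI counts, made by the authors for every gene in each well of 5 MARS-seq plates and not normalized. Tools listed by the submitters include bcl2fastq 2.15.0.4 with the genome build mm10. An aligner and the strand setting of the counting are not given in the sources used here. Members and all lists were chosen with earlier results of these data known, and the gate rule was set after the distributions of the gate genes had been seen. ERCC rows were removed and wells labelled with 1 cell and at least 500 UMIs kept; doublets were excluded in the authors' sort and no caller was run. A marker list qualified in a cell with at least 3 UMIs over 2 or more markers and a share of UMIs at or above the mean share; a cell took the list with the highest relative share where this was at least 2 times that of the next qualifying list, and was otherwise left ungated. The gates were microglia, border-type macrophages, monocytes, dendritic cells, neutrophils and T or NK cells; B cell markers gave 1.55 to 3.21 UMIs per 10000 over the classes, and astrocyte, oligodendrocyte, neuron and endothelial cell markers 35, 19, 3 and 34 UMIs in microglia-like cells, while erythrocyte markers gave 1 UMI in all kept cells.

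Sums of at least 5 cells per library and class were tested with edgeR 4.0.16 in R 4.3.3 (filterByExpr, TMM, robust quasi-likelihood fit, library as a block, adjusted p under 0.05), leaving out the gate genes; DESeq2 1.42.0 was an alternative. In the split by P2ry12 and Tmem119 each library supplied both arms. Between classes, only the libraries named above for a class supplied both arms, and AB5863 supplied microglia-like cells alone. The pairing by library comes from the libraries with both arms. Standard errors of edgeR values were computed as the absolute log2 fold change over the square root of its F statistic. The test was also run on simulated counts, with genes changed in border-type macrophage-like cells only. The simulation had the same spread for all genes and no plate effect, and its changed genes were drawn from those with higher counts. It therefore cannot vouch for calls of sparse members held by few cells. Thinning drew 500 UMIs per cell without replacement. The named genes are the 10 members, P2ry12 and Tmem119, up to 6 genes per list and comparison with the smallest p, and the 10 genes most like the summed members; the single cells described were chosen after their values were seen. Coordinates are from GENCODE for GRCm38, the same build as mm10. Fabp5 has closely similar copies and its counts are uncertain; Cd9, Ank and Spp1 overlap other annotated genes, which held at most 54 UMIs (Otulin, opposite strand to Ank) in the kept cells. Because UMIs tag 3′ ends, levels were compared within a gene, not between genes. Fewer cells using a gene and less RNA per cell cannot be told apart in the sums. Depth was 128201 to 549824 UMIs per library. No promoter or protein sequence is shown, since the counts do not bear on one.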

Additional observations from a re-analysis of the deposited data

How the results depend on the processing

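Counts of called genes depended on the settings. Against microglia-like cells, border-type macrophage-like cells had 32 called genes, and 19 with DESeq2, 0 without a filter on low counts (edgeR; in the reported fit 38 genes above and 43 below had an unadjusted p under 0.05), 1 with at least 20 UMIs over the sums, 76 with at least 1000 UMIs per cell, 92 with at least 10 cells per sum and 0 to 88 leaving out 1 library. Monocyte-like cells had 138, and 45, 80, 223 and 256 with the last 4 of these settings and 0 to 248 leaving out 1 library; dendritic cell-like cells had 235, and 93, 134, 451, 489 and 0 to 466. Neutrophil-like cells had 206, and 132 with DESeq2, 104 without a filter, 22 with at least 1000 UMIs, 64 with at least 10 cells and 13 to 296 leaving out 1 library. Between P2ry12/Tmem119-low and -high cells 1 gene was called, and 2 without a filter, 2 with 20 UMIs, 0 with no replicate block, 7 with 1000 UMIs, 0 with the pair in the gate, 9 between the outer tertiles and 0 to 2 leaving out 1 library. Without AB5865 no gene was called in border-type macrophage-like, monocyte-like or dendritic cell-like cells, and without AB5876 0, 1 and 0; the lone border-type sum left then is assumed to vary like the other classes. The highest counts in these classes were without AB5864, the lowest in neutrophil-like cells without AB5876 and the 0 between low and high cells without AB5867. The cause of these shifts was not tested.

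The log2 fold change of Lpl in low over high cells was 2.82 with DESeq2, 2.43 with no replicate block, 2.48 with the pair in the gate and 2.36 to 3.48 leaving out 1 library, and it kept its direction in each. Axl changed sign in monocyte-like cells (-0.24 with DESeq2, -0.11 without a filter, -0.050 with 20 UMIs, -0.30 with no replicate block, -0.19 with at least 300 UMIs per cell, -1.67 to 0.81 leaving out 1 library), in neutrophil-like cells (-0.049, -0.022 and -0.19 without a filter, with 20 UMIs and with no replicate block, -7.23 with 1000 UMIs, -0.93 to 1.20 leaving out 1 library) and in border-type macrophage-like cells (-0.13 to 0.72). Lgals3 in border-type macrophage-like cells was 0.23 with a stricter gate and -0.995 to 1.04 leaving out 1 library, and Cd9 in low over high cells 0.075 with 1000 UMIs; none of these was called. Cd9 in border-type macrophage-like cells lost its call in 6 of 16 alternatives, no replicate block among them, and Lpl there gained one in 5 of 16. The share of microglia-like cells with at least 2 members was 32.0% without thinning, in place of 14.7%. Alternatives with 20 UMIs were chosen after seeing the data. Depth limits the rare members, of which 6 could not be tested between classes.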
